A study of Mus musculus with 16 samples.

Results

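The 10 genes described here belong to insulin and insulin-like growth factor 1 (IGF1) signaling in the mouse dorsal hippocampus: the ligand Igf1, the receptors Insr and Igf1r, the receptor substrates Irs1 and Irs2, the PI3K regulatory subunit Pik3r1, the forkhead transcription factors Foxo1, Foxo3 and Foxo6, and Depp1. They were taken by gene symbol through the GENCODE M21 annotation from the 35328 genes of the deposited count table, and all 10 were among the 17830 genes with enough counts to be tested. Depp1 was chosen because of its large increase with learning under caffeine. The other 9 genes were chosen for their place in the pathway, with earlier results of these data known.

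RNA was sequenced from male C57Bl6/J mice in 4 groups of 4. From 8 to 9 weeks of age the mice drank water or water with caffeine at 0.3 g/L for 2 weeks. They were then taken at rest from the home cage (home cage water, home cage caffeine) or 1 hour after their last trial in the Morris water maze, a spatial learning task trained over 3 days (learning water, learning caffeine). No genetic modification is given for any group. Home cage mice did not swim, so learning and the swim itself cannot be told apart.

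Insulin and IGF1 bind tyrosine kinase receptors on the cell surface. The activated receptors phosphorylate the substrates IRS1 and IRS2, which recruit PI3K and through it activate the kinase Akt. Akt phosphorylates FOXO factors such as FOXO1 and FOXO3 and keeps them out of the nucleus. FOXO target genes are thus transcribed when the pathway is quiet or when other signals turn these factors on. In the brain the pathway is known for roles in neuronal metabolism, synaptic plasticity and memory, and Depp1 is known as a FOXO target gene that is also induced by progesterone. The study asked how long-term caffeine acts on the hippocampus at rest and during learning, with genes of metabolism and insulin signaling among those it examined.

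Between 23078094 and 49949281 reads per library were counted on genes. Levels are given as CPM, the read count of a gene for every 1000000 reads of the library total after scaling by edgeR's TMM method. A gene was called higher or lower when edgeR's quasi-likelihood test gave a Benjamini-Hochberg adjusted p under 0.1 over all 17830 genes, and errors are SD over 4 mice for levels and SE for log2 fold changes. Neuron markers (6 genes, summed level 5604 to 6748 CPM) and markers of hippocampal fields (6 genes, 1100 to 1618 CPM) were detected in every library. The summed level of 9 choroid plexus markers was 310 to 2364 CPM in home cage water, 195 to 508 in home cage caffeine, 166 to 438 in learning water and 119 to 207 in learning caffeine, and none of these markers was at 0 in all libraries. Home cage water replicate 20 had the highest choroid plexus level, and home cage caffeine replicate 17 lay farthest out on the first principal component. Values that rest on this pair of libraries are given with and without it. Learning water replicate 24 was not part of the pair. It lay at -5.78 on that component, against 13.1 to 20.5 for learning water replicates 33, 36 and 38. In bulk tissue, fewer cells of a type and less RNA per cell cannot be told apart.

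The DNA before the start sites of Irs2 and Foxo3, the genes called with learning among the 10, is shown together with that of Depp1. The learning response of Depp1 was the largest of the 10 genes under each treatment. Under caffeine this comes with the choice of the gene, and under water it was not called. Each line holds the 250 bases before the RefSeq start site (GRCm38.p6), from 5′ to 3′ on the strand of the gene, with motif matches in capitals. Irs2 is on the minus strand at chr8:11008930-11009179, Depp1 on the plus strand at chr6:116650434-116650683 and Foxo3 on the minus strand at chr10:42276696-42276945. The GENCODE models of Depp1 and Foxo3 begin inside these stretches.
Irs2: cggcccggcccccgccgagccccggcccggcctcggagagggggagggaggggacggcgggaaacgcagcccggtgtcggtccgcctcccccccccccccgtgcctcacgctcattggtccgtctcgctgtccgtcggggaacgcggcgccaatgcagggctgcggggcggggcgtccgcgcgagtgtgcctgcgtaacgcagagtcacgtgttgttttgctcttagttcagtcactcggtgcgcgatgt
Depp1: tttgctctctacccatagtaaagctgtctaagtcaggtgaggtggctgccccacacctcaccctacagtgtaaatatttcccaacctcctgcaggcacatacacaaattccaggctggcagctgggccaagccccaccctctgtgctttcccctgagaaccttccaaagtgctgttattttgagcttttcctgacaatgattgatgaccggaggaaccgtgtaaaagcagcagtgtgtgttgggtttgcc
Foxo3: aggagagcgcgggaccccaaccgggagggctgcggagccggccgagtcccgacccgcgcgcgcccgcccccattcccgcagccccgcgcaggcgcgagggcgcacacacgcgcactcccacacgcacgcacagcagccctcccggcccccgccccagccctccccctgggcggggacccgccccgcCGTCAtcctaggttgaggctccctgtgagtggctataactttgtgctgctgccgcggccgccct
Windows of 300 bases, from 250 before to 50 after the start, were searched on both strands for 5 motifs. The motifs were the FOXO element GTAAACA, the cyclic AMP response element TGACGTCA, its shorter form TGACG (which lies within the full element), the glucocorticoid response element (AGAACA and TGTTCT with 3 bases between them) and the CArG box. The windows of Irs2 and Depp1 held none of these letters. The FOXO element was searched only as GTAAACA, so near forms, such as the gtaaata in the Depp1 line, were not counted. The capitals in the Foxo3 line are the shorter cyclic AMP element read on the opposite strand, 64 bases before the start. The same letters lay 118 bases before the start of Irs1 and 35 before the start of the second Pik3r1 window. Of all 32851 RefSeq windows of this length, 20.8% held the shorter cyclic AMP element, 3.65% the FOXO element, 1.79% the full cyclic AMP element, 1.63% a CArG box and 0.00913% the glucocorticoid element. Windows were found for 8 of the 10 genes, in 9 windows, and Insr and Foxo6 had no entry. The Depp1 window was 51.7% G or C, against 72% for Irs2 and 75% for Foxo3.

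Levels of different genes are compared here per kilobase of merged exons, averaged over the 16 libraries. Irs2 had the highest level (13.2 ± 2.73 CPM per kb, SD, n = 16), followed by Foxo3 (9.17 ± 1.03), Pik3r1 (8.87 ± 0.633) and Foxo6 (7.29 ± 1.15). The ranges of Foxo3 and Pik3r1 over the libraries overlapped (7.38 to 11.2 and 7.80 to 10.3 CPM per kb). Foxo1 (5.76 ± 0.862), Insr (5.47 ± 0.299) and Igf1r (4.75 ± 0.492) followed, each overlapping its neighbour in range. Irs1 (2.38 ± 0.218), Depp1 (1.46 ± 0.987) and Igf1 (0.912 ± 0.108) were lowest. The range of Depp1 (0.376 to 3.60 CPM per kb) covered those of Irs1 (2.05 to 2.75) and Igf1 (0.681 to 1.03). The spread between libraries was narrowest for Insr, whose highest library was 1.22 times its lowest, and widest for Depp1, at 9.56 times.

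**Figure D1:**
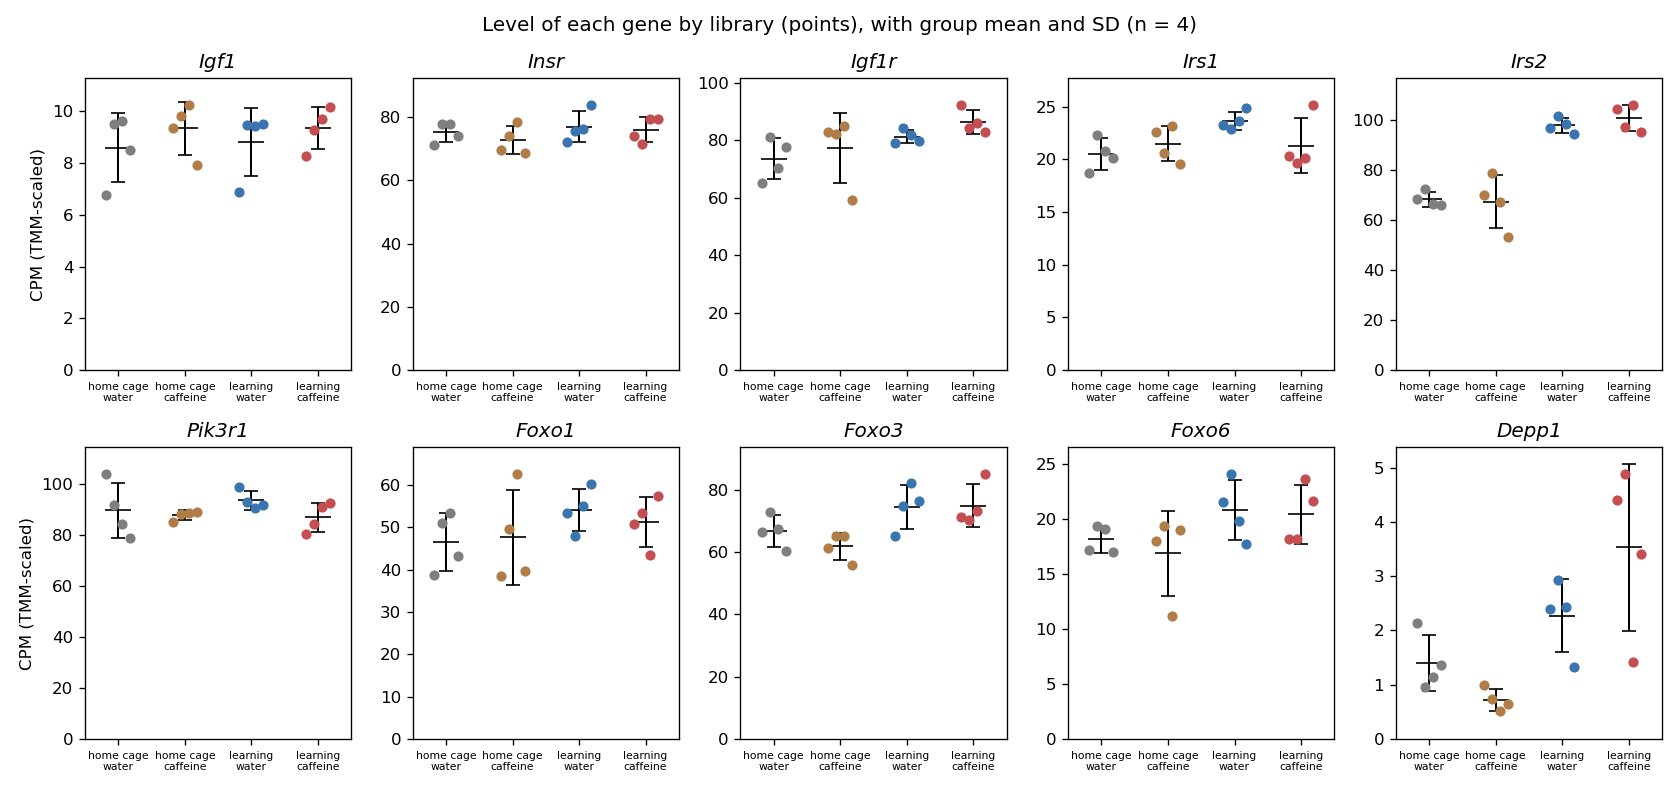
Level of each of the 10 genes in CPM (vertical axes, from 0) by library (points) in the 4 groups, with the group mean (dash) and SD (bars, n = 4). Irs2 lies between 94.4 and 106 CPM in the 8 learning libraries and between 53.0 and 78.5 CPM in the 8 home cage libraries, while Insr stays between 68.6 and 83.8 CPM in all 16.

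Irs2 rose with learning under both treatments. Irs2 (ENSMUSG00000038894, GRCm38 chr8:10984681-11008458, minus strand, protein coding) encodes the adaptor that couples the insulin and IGF1 receptors to PI3K. Its level was 68.5, 72.4, 66.3 and 65.8 CPM in home cage water replicates 6, 8, 11 and 20, and 70.04, 78.5, 67.3 and 53.04 CPM in home cage caffeine replicates 2, 9, 14 and 17. It was 96.7, 102, 98.4 and 94.4 CPM in learning water replicates 24, 33, 36 and 38, and 104, 97.1, 106 and 95.1 CPM in learning caffeine replicates 22, 27, 30 and 40, an order of replicates kept for the genes that follow. Every learning library was above every home cage library. Of the tested genes, 0.953% were higher without overlap in this comparison of 8 libraries with 8. The lowest of all was home cage caffeine replicate 17.

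Under water the log2 fold change of Irs2 was 0.52 (SE 0.083, 1.43-fold), and edgeR's quasi-likelihood test with Benjamini-Hochberg adjustment gave an adjusted p of 0.00686. Under caffeine it was 0.58 (SE 0.083, 1.499-fold, adjusted p = 0.00162 in the same edgeR test). The difference between these responses was 0.07 on the log2 scale (95% interval -0.18 to 0.31). Without home cage caffeine replicate 17 the response under caffeine was 0.49, and without both libraries that stood apart it was 0.50 under water and 0.49 under caffeine, each still called. Choroid plexus markers were lower with learning in the mean of both treatments (8 of 9 called) and under water (4 of 9 called, with a median of -1.38 on the log2 scale). Their summed level was highest in home cage water (310 to 2364 CPM), and home cage caffeine (195 to 508) overlapped learning water (166 to 438). Under caffeine 0 of 9 were called by edgeR or DESeq2, with a median of -0.61 and 2 with an unadjusted p under 0.05, beside the response of 0.58 of Irs2 given above. Their part in the response of Irs2 was not tested. Of the exon bases of Irs2, 2.56% are shared with 9530052E02Rik on the other strand, a transcript with 0.715 to 1.19 CPM.

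Irs1, the other substrate of the receptors, was not called in any comparison. Irs1 (ENSMUSG00000055980) was at 18.7, 22.3, 20.8 and 20.2 CPM in home cage water and 22.6, 20.6, 23.2 and 19.6 CPM in home cage caffeine. It was at 23.3, 22.9, 23.7 and 24.9 CPM in learning water and 20.3, 19.6, 20.2 and 25.2 CPM in learning caffeine. The 4 learning water libraries lay above the 4 home cage water libraries, as 3.87% of genes did, and 3 of the 4 learning caffeine libraries lay within the home cage caffeine range. Under water the log2 fold change was 0.21 (95% interval 0.03 to 0.38, adjusted p = 0.323 with edgeR's quasi-likelihood test). It was -0.01 under caffeine (95% interval -0.19 to 0.16). The difference between these responses was -0.22 (SE 0.12, 95% interval -0.46 to 0.02), the lowest of the 9 genes, with an adjusted p of 0.99997 in edgeR's quasi-likelihood test. The exons of Irs1 share 30.9% of their bases with Gm9747 on the other strand, which had 3 counts in all libraries together.

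In the comparison of learning with home cage under water, Irs2 was the 1 gene called among the 10 tested, where 0.97% of all tested genes were called and 0.639% were called higher. The log2 fold change was above 0 for all 10 genes, with a median of 0.18 beside a median of -0.01 over all genes, of which 48.5% were above 0. These medians describe genes that were chosen as a set and carry no test. Under caffeine, 2 of the 9 tested genes were called, Irs2 and Foxo3, where 5.28% of all genes were called and 3.16% were called higher. The 9 values had a median of 0.11 beside -0.01 over all genes, and 7 of 9 were above 0. In the mean of both responses the same 2 genes were called, where 14.5% of all genes were called and 7.81% were called higher, and DESeq2 called 3, Foxo6 being the third.

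**Figure D2:**
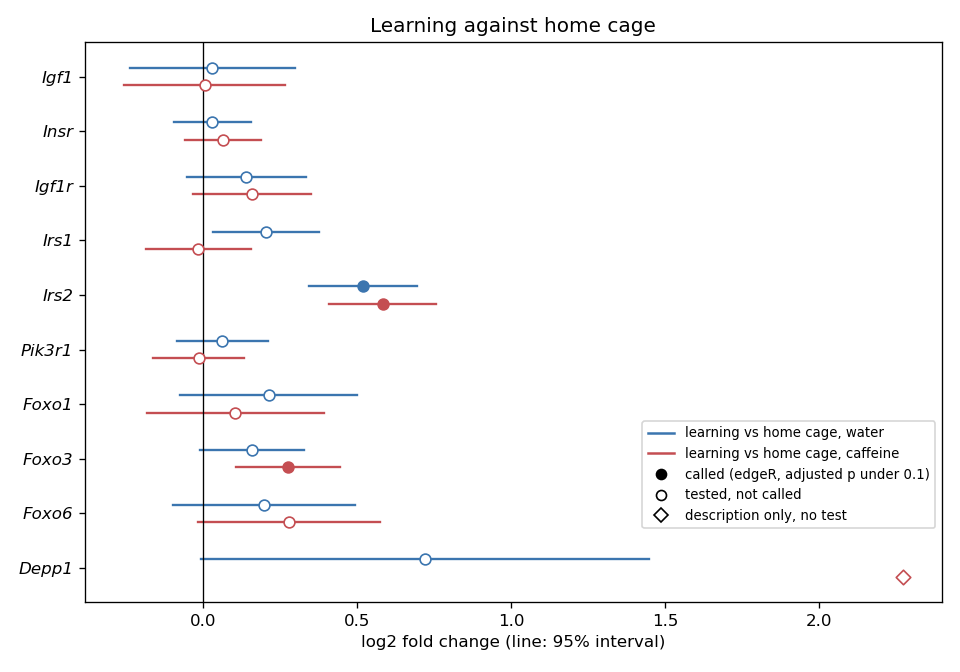
Learning response as a log2 fold change over the home cage group (horizontal axis) for each gene under water (blue) and caffeine (red), with 95% intervals as lines. Filled circles are called by edgeR (Irs2 at 0.52 and 0.58, Foxo3 under caffeine at 0.28), open circles were tested and not called, and the diamond for Depp1 under caffeine at 2.27 is a description with no test.

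Foxo3 rose with learning under caffeine and in the mean of both treatments. Foxo3 (ENSMUSG00000048756, GRCm38 chr10:42181841-42276755, minus strand, protein coding) encodes a FOXO factor that Akt inactivates. Its level was 66.3, 72.9, 67.3 and 60.2 CPM in home cage water and 61.1, 65.01, 65.2 and 55.9 CPM in home cage caffeine. It was 65.01, 74.9, 81.98 and 76.2 CPM in learning water and 71.1, 70.2, 73.1 and 85.04 CPM in learning caffeine. The caffeine groups did not overlap, as held for 5.64% of genes in the higher direction, while learning water replicate 24 lay within the home cage water range. Learning caffeine replicate 40 was the highest of the 16 libraries.

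The log2 fold change of Foxo3 was 0.28 under caffeine (SE 0.080, adjusted p = 0.0752, edgeR's quasi-likelihood test with Benjamini-Hochberg adjustment). Under water it was 0.16 (95% interval -0.01 to 0.33, adjusted p = 0.452 in the edgeR test), and the mean of both was 0.22 (SE 0.057, adjusted p = 0.0260). The difference between the responses was 0.12 (95% interval -0.12 to 0.35). The call under caffeine was lost when home cage caffeine replicate 2 or 17 or learning caffeine replicate 30 or 40 was left out, with values of 0.29, 0.23, 0.29 and 0.22 and edgeR adjusted p of 0.128, 0.191, 0.138 and 0.207. Without both libraries that stood apart it was 0.24 (edgeR adjusted p = 0.174), and the mean of both treatments was then 0.18 and still called (edgeR adjusted p = 0.0940).

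Foxo6 and Foxo1 were not called. Foxo6, a FOXO factor known for its expression in the hippocampus, was at 17.1, 19.3, 19.1 and 17.03 CPM in home cage water and 18.01, 19.3, 11.2 and 18.97 CPM in home cage caffeine. It was at 21.6, 24.1, 19.8 and 17.7 CPM in learning water and 18.2, 18.2, 23.7 and 21.6 CPM in learning caffeine. Home cage caffeine replicate 14 was the lowest library, and the learning and home cage libraries overlapped under both treatments. The mean learning response of Foxo6 was 0.24 on the log2 scale (95% interval 0.03 to 0.45, adjusted p = 0.141 in edgeR's quasi-likelihood test), and DESeq2's Wald test gave an adjusted p of 0.0977. Without home cage caffeine replicate 14 the edgeR value was 0.17 and not called (edgeR adjusted p = 0.154).

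Foxo1, which is also a target of Akt, was at 38.6, 51.1, 53.4 and 43.1 CPM in home cage water, 38.6, 49.5, 62.6 and 39.7 CPM in home cage caffeine, 53.4, 47.9, 54.96 and 60.2 CPM in learning water and 50.7, 53.4, 43.5 and 57.4 CPM in learning caffeine. The groups overlapped, and the home cage caffeine mice alone spanned 38.6 to 62.6 CPM. The mean learning response was 0.16 (95% interval -0.04 to 0.36, edgeR adjusted p = 0.311). Without home cage caffeine replicate 14, the highest library, it was 0.25 and called (edgeR adjusted p = 0.0656). Without home cage caffeine replicate 17 it was 0.12, and without both libraries that stood apart 0.11, neither called (edgeR adjusted p of 0.481 and 0.608).

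The ligand Igf1 and the receptors were not called in any comparison. Igf1, a secreted growth factor, lay between 6.75 and 10.2 CPM over the 16 libraries, and its learning response was 0.03 under water (95% interval -0.24 to 0.30) and 0.01 under caffeine (-0.26 to 0.27). Insr, the insulin receptor, lay between 68.6 and 83.8 CPM, with responses of 0.03 (-0.09 to 0.16) and 0.06 (-0.06 to 0.19). Igf1r, the IGF1 receptor, was at 65.3, 81.4, 70.5 and 77.6 CPM in home cage water, 83.01, 82.2, 84.9 and 59.2 CPM in home cage caffeine, 79.3, 84.4, 81.95 and 79.7 CPM in learning water and 92.4, 84.2, 86.1 and 82.8 CPM in learning caffeine. Both learning groups of Igf1r overlapped their home cage group, and home cage caffeine replicate 17 stood below all other libraries.

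The mean learning response of Igf1r was 0.15 (95% interval 0.01 to 0.29, adjusted p = 0.155 in edgeR's quasi-likelihood test). Leaving out home cage water replicate 8 or home cage caffeine replicate 14 made it 0.19 and 0.18, both called (edgeR adjusted p of 0.0751 and 0.0957). Without home cage caffeine replicate 17 it was 0.10, and without both libraries that stood apart 0.11, neither called (edgeR adjusted p of 0.197 and 0.190). Under caffeine the response was 0.16, and 0.05 without home cage caffeine replicate 17. Pik3r1, which encodes the regulatory subunits of PI3K that bind IRS proteins, lay between 78.6 and 104 CPM. Its learning response was 0.06 under water (95% interval -0.08 to 0.21) and -0.01 under caffeine (-0.16 to 0.13).

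Depp1 was lowest in home cage caffeine and highest in learning caffeine, the pair of groups it was chosen on. Depp1 (ENSMUSG00000048489, GRCm38 chr6:116650609-116652794, plus strand, protein coding) encodes a protein known to act on autophagy and oxidative stress responses. Its level was 2.14, 0.956, 1.14 and 1.37 CPM in home cage water and 0.994, 0.732, 0.511 and 0.642 CPM in home cage caffeine. It was 2.404, 2.92, 2.44 and 1.34 CPM in learning water and 4.398, 4.88, 1.42 and 3.41 CPM in learning caffeine. These values rest on 17 to 228 counts per library. Learning caffeine replicates 22, 27 and 40 were above all other libraries, while replicate 30 lay among the home cage water libraries.

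The mean level of Depp1 was 3.53 ± 1.53 CPM in learning caffeine, 2.27 ± 0.669 in learning water, 1.402 ± 0.523 in home cage water and 0.720 ± 0.204 in home cage caffeine (SD, n = 4 each). Each group overlapped its neighbour in this order. Under water, the 1 comparison whose groups hold none of the libraries that chose the gene, the log2 fold change was 0.72 (SE 0.35, 95% interval -0.01 to 1.45). It was not called, with an unadjusted p of 0.0517 and an adjusted p of 0.432 in edgeR's quasi-likelihood test, and DESeq2's Wald test gave an adjusted p of 0.367. The SE and p also rest on a spread estimated over all 16 libraries, which include those that chose the gene. Learning water replicates 24, 33 and 36 were above all home cage water libraries, and replicate 38 lay below home cage water replicates 6 and 20. Over the fits that each left out 1 library the value under water ranged from 0.59 to 0.99 with no call.

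As a description, with no test, the log2 fold change of Depp1 with learning under caffeine was 2.27 (SE 0.36), and the groups did not overlap, as in 5.64% of genes in the higher direction. Caffeine against water was -0.93 (SE 0.39) in the home cage and 0.62 (SE 0.32) after training. The learning response under caffeine thus exceeded that under water by 1.55 (SE 0.50), a value made of the low home cage caffeine level and the high learning caffeine level together. Depp1 lies inside an intron of Rassf4 on the other strand, shares no exon base with it, and Rassf4 was at 5.44 to 9.75 CPM in the 16 libraries.

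The likeness of other genes to Depp1 was measured as the mean absolute difference of z scores of log2 CPM over the 16 libraries, where 0 is an identical pattern and the median of all tested genes was 1.13. The 5 nearest genes were Gpat4 (0.380), Tsc22d3 (0.380), Lurap1l (0.382), Ube3b (0.390) and Cdip1 (0.393). Tsc22d3 was at 47.1 ± 10.9 CPM in home cage water, 43.00 ± 2.91 in home cage caffeine, 64.6 ± 6.41 in learning water and 72.1 ± 14.5 in learning caffeine (SD, n = 4). Lurap1l was at 35.6 ± 2.12, 32.1 ± 4.50, 43.8 ± 3.25 and 48.6 ± 1.63 CPM in the same groups. The group means of Gpat4 ran from 89.1 to 97.7 CPM. The genes were picked for likeness over libraries that include those Depp1 was chosen on, so a like order of their group means comes with the choice. Among the other 9 genes Irs2 was nearest (0.597), followed by Foxo3 (0.843), Foxo6 (0.855) and Igf1r (0.891), and Igf1 was farthest (1.22). Irs2 had rank 167 among the tested genes. The order of these 9 rests on the same libraries, so genes that rose with learning lie nearer by the choice of Depp1. It is a description with no test.

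Caffeine against water gave no call among the 9 genes. In the home cage their log2 fold changes lay between -0.11 (Foxo3) and 0.12 (Igf1), and all 95% intervals lay within -0.41 to 0.38. After training they lay between -0.15 (Irs1) and 0.09 (Igf1), with intervals within -0.36 to 0.35. The differences between the learning responses lay between -0.22 (Irs1) and 0.12 (Foxo3), with intervals within -0.51 to 0.50. In each of these comparisons edgeR's quasi-likelihood test called 0 of the 9 genes and 0% of all genes, none of the 9 had an unadjusted p under 0.05 (3.57%, 3.93% and 3.63% of all genes did), and DESeq2's Wald test called 0 of the 9. Averaged over both conditions, the differences lay between -0.07 (Pik3r1) and 0.10 (Igf1), with intervals within -0.28 to 0.29, and again 0 of the 9 genes were called by edgeR or DESeq2 and 0 had an unadjusted p under 0.05, as 4.07% of all genes did. The narrowest interval in the home cage was that of Insr (-0.18 to 0.07).

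**Figure D3:**
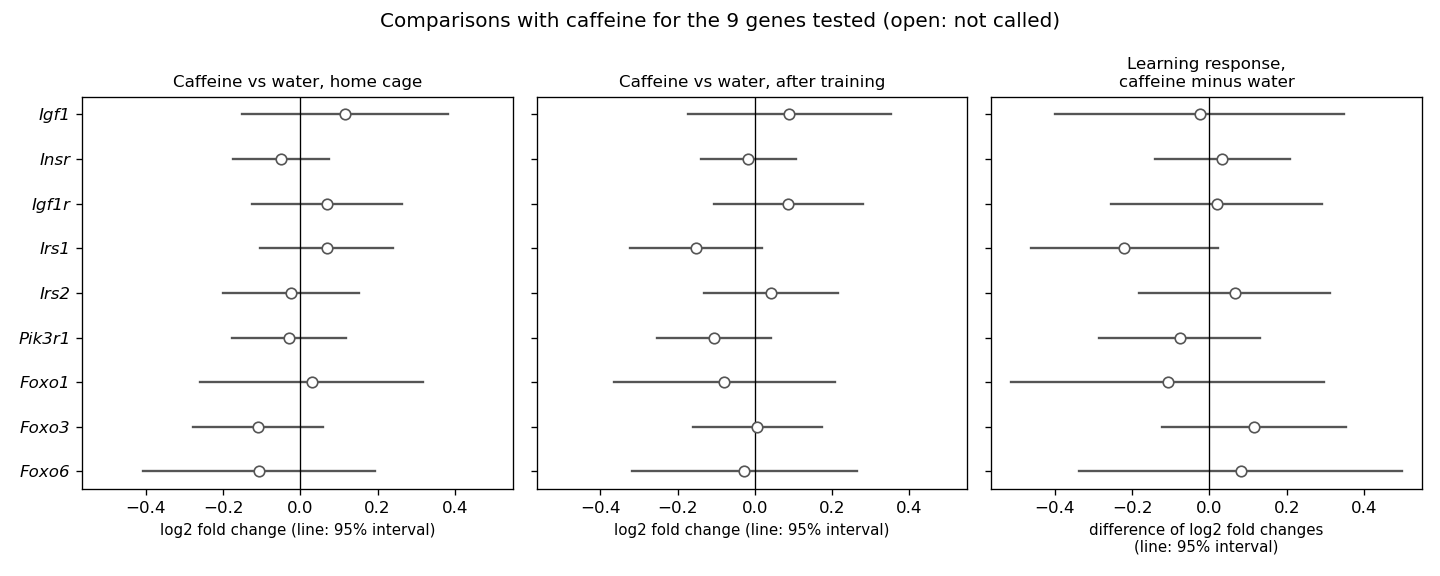
Log2 fold change (circles) with 95% interval (lines) of the 9 genes for caffeine against water in the home cage, caffeine against water after training, and the learning response under caffeine minus that under water. Every circle is open, since no gene was called, and Irs1 has the lowest value in the middle and right panels (-0.15 and -0.22).

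Beyond the 10 genes, 8 lists of pathway genes held 92 genes, of which 82 were tested. Ins1 and Ins2, the insulin genes, had 1 and 18 counts in all 16 libraries together and were not tested, nor were Igfbp1, Igfals, Insrr, Irs3, Irs4, Trim63, Pck1 and G6pc (4 to 99 counts). Under water 3 of 82 were called (Irs2, Ptpn1 and Tnfsf10), under caffeine 9 of 81 (6 higher, 3 lower) and in the mean of both 18 of 81 (12 higher, 6 lower). Of all tested genes, 0.97%, 5.28% and 14.5% were called in these comparisons, with 0.639%, 3.16% and 7.81% higher and 0.331%, 2.13% and 6.71% lower. DESeq2's Wald test called 4, 16 and 28 of the list genes and 428, 1569 and 2984 genes in all. The median log2 fold changes of the lists together were 0.05, 0.07 and 0.07, beside -0.01 over all genes in each. In caffeine against water, at rest and after training, edgeR called 0 of 81 (1 and 3 with an unadjusted p under 0.05) and DESeq2 called 0.

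Among ligands and binding proteins, Ide rose and Igf2, Igfbp2 and Igfbp4 fell in the mean learning response, 4 of 9 tested genes beside 14.5% of all genes (7.81% higher, 6.71% lower). Igf2, a growth factor made in choroid plexus and meninges, was at 47.00, 75.5, 66.5 and 116 CPM in home cage water and 36.2, 73.5, 67.6 and 45.4 CPM in home cage caffeine. It was at 54.5, 32.97, 42.03 and 37.8 CPM in learning water and 38.3, 43.7, 56.5 and 28.2 CPM in learning caffeine. Home cage water replicate 20 was far above the rest, and the groups overlapped. The mean response of Igf2 was -0.64 (SE 0.19, adjusted p = 0.0430, edgeR's quasi-likelihood test), that of the carrier protein gene Igfbp2 -0.53 (SE 0.15, adjusted p = 0.0423) and that of Igfbp4 -0.29 (SE 0.10, adjusted p = 0.0861).

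Igf2 and Igfbp2 were highest in the library with the most choroid plexus signal (116 and 40.8 CPM at a summed marker level of 2364 CPM). The summed level of 6 leptomeningeal fibroblast markers was 36.2 to 59.6 CPM in home cage water, 27.2 to 68.6 in home cage caffeine, 34.8 to 53.0 in learning water and 26.6 to 70.0 in learning caffeine, and none was at 0 in all libraries. Home cage water replicate 20, learning water replicate 24 and learning caffeine replicate 30 had the highest leptomeningeal sums of their groups (59.6, 53.0 and 70.0 CPM). Igf2 was also highest of its group there (116, 54.5 and 56.5 CPM). In home cage caffeine the highest sum was in replicate 14 (68.6 CPM). Igf2 was at 67.6 CPM there, below 73.5 CPM in replicate 9. The part of choroid plexus and leptomeningeal cells in the values of Igf2 and Igfbp2 was not tested. Without home cage water replicate 20 the mean responses were -0.50 and -0.40, both still called (edgeR adjusted p of 0.0978 and 0.0919), and without both libraries that stood apart Igfbp2 was at -0.38 and not called (edgeR adjusted p = 0.138). Igfbp4 kept its call in 6 of 16 fits that each left out 1 library. Ide, the insulin-degrading enzyme, rose by 0.16 (SE 0.042, adjusted p = 0.0300, edgeR) and was called in all 16 such fits.

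**Figure D4:**
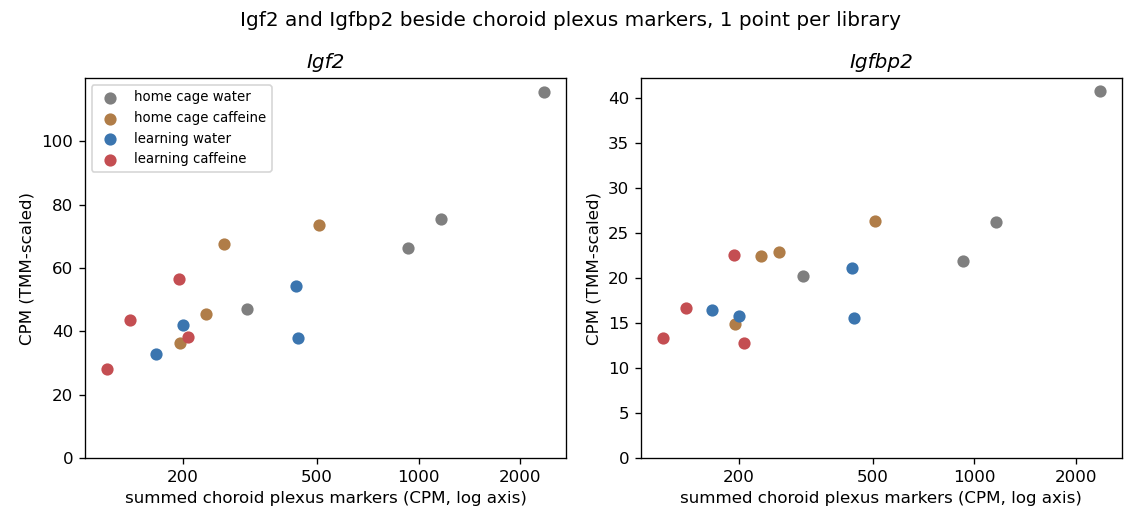
CPM of Igf2 (left) and Igfbp2 (right) against the summed CPM of 9 choroid plexus markers (log axis), 1 point per library, coloured by group. The home cage water library with 2364 CPM of choroid plexus markers has the highest value of both genes, 116 and 40.8 CPM.

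Receptors, PI3K subunits and Akt kinases gave no call in any learning comparison in edgeR. For the 3 receptors the mean learning response lay between 0.05 and 0.15 (2 with an unadjusted p under 0.05, 1 called by DESeq2), and for the 10 PI3K and Akt genes between -0.06 and 0.11 (2 with an unadjusted p under 0.05, 0 called by DESeq2). Of all genes, 25.5% had an unadjusted p under 0.05 in this comparison, and DESeq2 called 2984. The list of substrates and adaptors had 2 calls of 8 in the mean response, Irs2 and Sh2b1, beside 14.5% of all genes called (7.81% higher). DESeq2 called 3 of the 8. Sh2b1, an adaptor of the insulin receptor, rose by 0.08 (SE 0.030, adjusted p = 0.0948, edgeR's quasi-likelihood test), a call kept in 11 of 16 fits that each left out 1 library.

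Among 15 inhibitors of the pathway, Ptpn1 rose with learning under both treatments. Ptpn1 encodes the phosphatase PTP1B, which dephosphorylates the insulin receptor. It was at 50.97, 54.1, 52.8 and 51.7 CPM in home cage water and 57.6, 53.6, 48.6 and 51.9 CPM in home cage caffeine, and at 58.8, 62.7, 65.7 and 62.02 and 60.3, 58.2, 63.2 and 64.7 CPM in the learning groups with water and caffeine. Every learning library was above every home cage library, as held for 0.953% of genes. The log2 fold change was 0.25 under water (SE 0.056, adjusted p = 0.0641) and 0.22 under caffeine (SE 0.056, adjusted p = 0.0444) in edgeR's quasi-likelihood test, and 0.23 in the mean of both (adjusted p = 0.00204). Leaving out 1 library ended the call under water in 6 of 16 fits (home cage water replicates 6, 11 and 20, learning water replicates 33, 36 and 38, edgeR adjusted p up to 0.212) and under caffeine in 3 of 16 (home cage caffeine replicate 17, learning caffeine replicates 30 and 40, up to 0.125). The mean of both was called in all 16. The pseudokinase genes Trib1 and Trib2 rose in the mean response, by 0.38 (SE 0.093) and 0.24 (SE 0.053), with edgeR adjusted p of 0.0202 and 0.0121.

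In the branch of mTOR and GSK3, 3 of 14 genes rose in the mean response and none fell, beside 14.5% of all genes called. DESeq2's Wald test called 8 of the 14, and 8 had an unadjusted p under 0.05 in edgeR. In this comparison DESeq2 called 2984 genes in all, and 25.5% of all genes had an unadjusted p under 0.05 in edgeR. Eif4ebp2, a repressor of translation initiation that mTOR inactivates, was at 63.7, 70.6, 67.5 and 61.6 CPM in home cage water and 63.3, 68.5, 60.5 and 58.4 CPM in home cage caffeine. It was at 73.1, 79.3, 73.2 and 74.4 CPM in learning water and 76.4, 74.4, 80.2 and 83.5 CPM in learning caffeine. Every learning library was above every home cage library, as held for 0.953% of genes. Its response was 0.33 under caffeine (SE 0.059, adjusted p = 0.00829) and 0.19 under water (SE 0.059, adjusted p = 0.193, not called) in edgeR's quasi-likelihood test, and the difference of 0.14 had a 95% interval that included 0 (SE 0.084). Mtor and Rps6kb1, the kinase and its S6 kinase target, rose by 0.15 (SE 0.039) and 0.12 (SE 0.042) in the mean response, with edgeR adjusted p of 0.0296 and 0.0835. Rps6kb1 kept its call in 7 of 16 fits that each left out 1 library.

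FOXO target genes moved in both directions. Of 18 tested without Depp1, 5 were called under caffeine, 2 higher and 3 lower, a list median of 0.08 on the log2 scale, where 3.16% of all genes were called higher and 2.13% lower. DESeq2's Wald test called 7 of the 18. Under water 1 of 19 was called, beside 0.97% of all genes. Fbxo32, a ubiquitin ligase gene of muscle atrophy, was at 31.5, 33.6, 30.6 and 26.6 CPM in home cage caffeine and 18.4, 15.2, 17.2 and 22.6 CPM in learning caffeine, and at 28.02, 30.2, 26.8 and 22.1 and 28.7, 20.8, 21.5 and 25.02 CPM in the home cage and learning groups with water. The caffeine groups did not overlap, as held for 5.24% of genes in the lower direction, and the water groups did. It fell by 0.74 under caffeine (SE 0.12, adjusted p = 0.00514, edgeR's quasi-likelihood test), while the value under water was -0.16 (SE 0.12). The difference between the responses, -0.58 (SE 0.18), had an unadjusted p of 0.00416 and was not called (adjusted p of 0.99997 in edgeR).

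Bcl6, a transcriptional repressor, was at 49.8, 58.03, 61.7 and 47.5 CPM in home cage caffeine and 69.1, 79.9, 80.2 and 74.3 CPM in learning caffeine and rose by 0.49 (SE 0.11, adjusted p = 0.0343, edgeR). Cdkn1a, the cell cycle inhibitor p21, was at 6.59, 8.57, 5.65 and 7.39 and 13.4, 11.8, 9.75 and 8.76 CPM in these groups and rose by 0.64 (SE 0.16, adjusted p = 0.0403, edgeR). Under water Cdkn1a was at 0.04 (SE 0.16), and the difference between its responses, 0.59 (SE 0.22), was not called. Bbc3, a cell death activator, fell by 0.48 under caffeine (SE 0.13, adjusted p = 0.0588, edgeR), a call lost without home cage caffeine replicate 2 or 17 or learning caffeine replicate 22 or 30 (edgeR adjusted p up to 0.181). The call of Bcl6 was lost without home cage caffeine replicate 17 (edgeR adjusted p = 0.102). Under water Bcl6 was at 0.34 (SE 0.12) and Bbc3 at -0.37 (SE 0.13), neither called (edgeR adjusted p of 0.237 and 0.255). Both were called in the mean response, at 0.41 and -0.43 (edgeR adjusted p of 0.00575 and 0.00987). The differences between their responses, 0.15 (SE 0.16) and -0.11 (SE 0.18), were not called.

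Tnfsf10, the death ligand TRAIL, fell under both treatments. It was at 2.14, 3.73, 3.48 and 3.76 CPM in home cage water and 1.67, 1.88, 2.07 and 1.43 CPM in learning water, and at 2.67, 3.32, 3.29 and 2.96 and 1.79, 2.06, 1.85 and 2.401 CPM in the home cage and learning groups with caffeine. The learning libraries were below the home cage libraries under each treatment, as held for 3.12% of genes under water and 5.24% under caffeine. The log2 fold change was -0.90 under water (SE 0.17, adjusted p = 0.0362, edgeR) and -0.59 under caffeine (SE 0.17, adjusted p = 0.0749, edgeR). Leaving out home cage water replicate 11 or 20 ended the call under water (edgeR adjusted p up to 0.140), and 6 of 16 such fits ended it under caffeine (home cage caffeine replicates 9, 14 and 17, learning caffeine replicates 22, 27 and 30, up to 0.194).

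**Figure D5:**
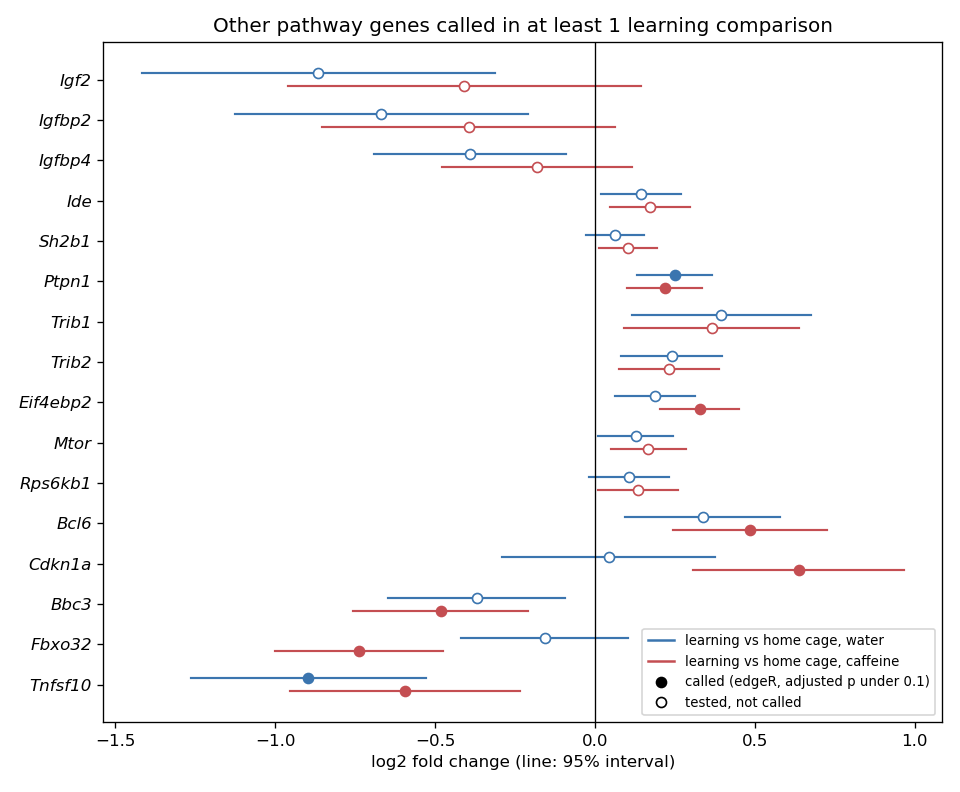
Learning response (log2 fold change over the home cage group, horizontal axis) with 95% interval for 16 other pathway genes that were called in at least 1 learning comparison, under water (blue) and caffeine (red). Filled circles are called by edgeR: Ptpn1 (0.25 and 0.22) and Tnfsf10 (-0.90 and -0.59) under both treatments, and Eif4ebp2, Bcl6, Cdkn1a, Bbc3 and Fbxo32 under caffeine.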

How the data were processed

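RNA-Seq was performed on dorsal hippocampus of 16 mice, 4 per group. Libraries were stranded and reads were single-end, 50 bases long. The authors aligned them to mm10 (STAR, Bowtie 2), retained unique alignments and deposited raw read counts per Ensembl gene and mouse from HTSeq 0.6.1p1 in union mode, without normalization, pooling or molecular identifiers. The strand setting of the counting is not given in the sources used here, so reads of overlapping genes on opposite strands may be shared. No per-sample column was left unused, and the authors tested these counts with DESeq2.

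From the counts, R 4.3.3 and edgeR 4.0.16 were used: TMM, filterByExpr by group (17830 genes), a common fit of 16 libraries with group means, and quasi-likelihood tests adjusted by the Benjamini-Hochberg method (threshold 0.1). Gene positions came from GENCODE M21, where 81 genes had no match, and promoter windows from RefSeq. Totals of 23078094 to 49949281 counts gave a median SE of 0.10 on the log2 scale per comparison of 2 groups. Replicates of a group differed beyond sampling noise (chi-square per degree of freedom 5.65 to 33.2 over 24 pairs). The highest value was that of learning water replicates 24 and 38.

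The 10 genes, the pathway and marker lists and the tests were chosen with earlier results of these data known. Named were the 10 genes, the called genes of each pathway list (the 4 of smallest p where over 4 were called), genes overlapping 1 of the 10 and the 5 genes most like Depp1. Alternatives were DESeq2 1.42.0 size factors or Wald test, edgeR on the 8 libraries compared, no count filter (at least 1 count), a threshold of 0.05 and each library left out; leaving out the pair of libraries that stood apart was chosen after seeing the data. On counts simulated for learning against home cage under water, tested on 17830 genes, 138 of 200 changed genes were found by edgeR (11 false calls) and 143 by DESeq2 (32 false calls). Changes were simulated in learning water only, at sizes above most responses of the 10 genes. The shares found do not carry over to smaller changes.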

Additional observations from a re-analysis of the deposited data

Results flagged for a closer look

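Of 40 sets of 4 libraries (10 genes in 4 groups), 4 held a library whose gap to the nearest other, divided by the range of the group, exceeded Dixon's critical value, where chance flags about 1 in 20. Igf1r was at 59.18 CPM in home cage caffeine replicate 17, below the other 3 libraries of that group at 82.2 to 84.9 CPM. Igf1 was at 6.867 CPM in learning water replicate 24, below the others at 9.44 to 9.51 CPM. Irs1 was at 25.18 CPM in learning caffeine replicate 40, above the others at 19.6 to 20.3 CPM. Foxo6 was at 11.15 CPM in home cage caffeine replicate 14, below the others at 18.01 to 19.3 CPM. Home cage caffeine replicate 17 was also the library farthest out on the first principal component, and learning water replicate 24 had the highest summed level of 5 oligodendrocyte markers (9453 CPM, against 3832 to 7179 CPM in the other libraries). The part of these differences in the 4 values was not tested.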

How the results depend on the processing

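No paired analysis was possible because the groups share no replicate numbers. Irs2 was called with learning under water, under caffeine and in the mean of both in every alternative, with a log2 fold change of 0.50 to 0.56, 0.49 to 0.67 and 0.51 to 0.59 when 1 library was left out. Learning under caffeine gave 2 called genes of 9, but 1 at a threshold of 0.05 and 1 without the pair of libraries that stood apart (an alternative chosen after seeing the data), and 1 to 2 with 1 library left out, Foxo3 being the gene lost. The mean learning response gave 2 to 4 calls with 1 library left out (4 without home cage caffeine replicate 14, with Igf1r and Foxo1 added, and 3 without home cage water replicate 8, with Igf1r added), and 3 in DESeq2 or without the count filter, with Foxo6 added. The numbers of called genes of the 10 in the other comparisons, and the response of Depp1 under water (0.59 to 0.99, never called), kept their side of the threshold, and no called value turned its direction. Over all genes, 173 were called under water, 942 under caffeine and 2590 in the mean response. With 1 library left out the calls under water were 37 to 312, with 37 without learning water replicate 36, 38 without home cage water replicate 20, 47 without home cage water replicate 11, 54 without learning water replicate 33, 98 without learning water replicate 38, 109 without learning caffeine replicate 30 and 312 without home cage caffeine replicate 17. Those under caffeine were 382 to 1231, the fewest without learning caffeine replicate 30 (382), home cage caffeine replicate 17 (406), and learning caffeine replicates 40 (512) and 22 (576), and those in the mean response 1783 to 3191. Without the pair of libraries the counts were 64, 408 and 1368, with DESeq2 428, 1569 and 2984, on the 8 libraries compared 85 and 617, and without the count filter 290, 793 and 2075. Caffeine against water, called in 0 genes in the home cage and after training, gave 19 and 6 with DESeq2, 34 and 8 without the count filter, and 33 and 0 without home cage water replicate 6. Of the pathway genes, the calls of Ptpn1 under either treatment, of Tnfsf10 under either treatment, of Bbc3 under caffeine and of Igfbp2, Igfbp4, Rps6kb1 and Sh2b1 in the mean response were lost without the pair. On the 8 libraries compared edgeR no longer called Ptpn1 under water (adjusted p = 0.105) or caffeine (0.121), Tnfsf10 under water (0.111) or Bbc3 under caffeine (0.104). Without the count filter Rps6kb1 (0.115) and Sh2b1 (0.238) were not called, and a threshold of 0.05 ended the calls of Ptpn1 under water, Tnfsf10 and Bbc3 under caffeine and Cdkn1a, Igfbp4, Rps6kb1 and Sh2b1 in the mean response. The cause of these changes was not tested. Depp1 rests on 17 to 228 counts per library, which limits its precision.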

Other observations

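For 2 gene sets outside the pathway, most genes were called higher with learning in the mean of both treatments. Of 11 immediate early genes, transcribed within minutes of neuronal activity, edgeR's quasi-likelihood test called 9 higher under water, 8 under caffeine and 11 in the mean of both, with median log2 fold changes of 0.999, 0.84 and 1.06, where 0.639%, 3.16% and 7.81% of all genes were called higher. Of 12 glucocorticoid response genes, 3, 8 and 10 were called higher in the same comparisons and none lower, beside the same shares of all genes, with medians of 0.37, 0.59 and 0.51. The difference between the responses gave 0 calls in either set by edgeR or DESeq2, with 2 immediate early and 0 glucocorticoid genes at an unadjusted p under 0.05. The lists were chosen with earlier results of these data known, so the counts are descriptions.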
